A study of Homo sapiens with 6 samples.

Results

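The RNAs of the CORVET and HOPS endosomal tethers, and of the related VPS33B-VIPAS39 pair, were compared between pulldowns with the FERRY complex and pulldowns with the affinity tag alone. The 10 genes were taken by name: VPS8 and TGFBRAP1 of CORVET, VPS39 and VPS41 of HOPS, VPS11, VPS16, VPS18 and VPS33A of the core that both complexes share, and VPS33B with VIPAS39. All 10 were found among the 60676 Ensembl genes of the count table, and all 10 were among the 15546 genes with enough counts to be tested. The set was proposed with the difference between the baits already known, so its values for that difference are given as a description. They are not evidence that these genes respond as a group.

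HEK 293, a long-established line from human embryonic kidney, was grown in suspension and lysed. Glutathione resin carrying either GST, a glutathione-binding tag that controls for nonspecific binding (3 libraries), or the GST-Ferry complex (3 libraries) was incubated with fresh lysate for 1.5 h and washed. Libraries were made from the bound RNA after removal of ribosomal RNA. The FERRY complex, which binds active RAB5 on early endosomes, consists of PPP1R21, TBCK, C12orf4, GATD1 and CRYZL1. No library of input lysate was analysed here, so each value is a share of the RNA that one bait recovered. The labels do not say that replicates came from separate cultures.

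CORVET and HOPS are large assemblies that hold endosomal membranes together before they fuse. They share a core of VPS11, VPS16, VPS18 and the SNARE-binding protein VPS33A, and differ in the subunits at their ends. CORVET carries VPS8 and TGFBRAP1, the human counterpart of yeast Vps3, and acts on early endosomes with RAB5. HOPS carries VPS41 and VPS39 and acts on late endosomes and lysosomes, where it works with RAB7, RAB2 and ARL8. VPS33B and VIPAS39 are relatives of VPS33A and VPS16 that form a separate complex.

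Library totals ran from 7390346 to 10466520 counts with GST and from 2454538 to 6532665 counts with GST-Ferry. The lowest count of any member in any library was 13, for VPS33B in GST-Ferry 3, and every other member had at least 63 counts in every library. Deposited columns named control and sample were read as GST and GST-Ferry with the same number, which rests on the words alone. Levels are given as CPM, the count of a gene for each 1000000 counts of the scaled library total. The bait mRNA PPP1R21 stood at 39.4 to 44.6 CPM in the libraries read as GST and at 797.9, 18290 and 37620 CPM in those read as GST-Ferry 1, 2 and 3. Between 2 libraries of one bait the chi-square of counts over its degrees of freedom was 4.43 to 50.3, so all pairs differed beyond counting noise. GST 3 and GST-Ferry 1 each had the higher chi-square values within their bait, so values without both are given beside the results.

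The 4 members that the comparison turns on are identified here by the first 90 coding bases of their principal transcript, read 5′ to 3′ from GENCODE 29 with the start codon in capitals. They are VPS8 and VPS18, which had the largest differences between baits, and TGFBRAP1 and VPS41, the partner of VPS8 in CORVET and a HOPS subunit of similar base composition to VPS8.
VPS8: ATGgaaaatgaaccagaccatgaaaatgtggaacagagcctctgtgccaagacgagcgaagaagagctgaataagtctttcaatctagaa
TGFBRAP1: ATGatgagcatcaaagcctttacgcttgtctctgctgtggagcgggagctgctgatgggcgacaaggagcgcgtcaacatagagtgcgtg
VPS18: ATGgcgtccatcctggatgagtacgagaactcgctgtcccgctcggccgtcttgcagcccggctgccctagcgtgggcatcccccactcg
VPS41: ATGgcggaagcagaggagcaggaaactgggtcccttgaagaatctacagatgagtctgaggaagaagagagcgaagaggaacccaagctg
The VPS8 stretch held 42.2% G+C and the VPS18 stretch 66.7%, with 55.6% for TGFBRAP1 and 52.2% for VPS41. Over the whole coding sequence VPS8 and VPS41 were alike at 41.85% and 41.88%, against 54.84% for TGFBRAP1 and 61.36% for VPS18.

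VPS8 had the highest CPM of the 10 RNAs in all 6 libraries, without scaling for length, and was the one that differed most between the baits. VPS8 encodes a large subunit through which CORVET is thought to meet RAB5. It lies on chromosome 3 (184812143 to 185052614, plus strand of GRCh38, as GENCODE 29 places it), and its principal transcript has 47 exons and 5047 bases. GST 1, 2 and 3 held 108, 135 and 161 CPM of VPS8, and GST-Ferry 1, 2 and 3 held 248.9, 525.5 and 357 CPM. The groups did not overlap, and the 3 GST-Ferry libraries spanned a wider range than the 3 GST libraries. Mean VPS8 was 134.5 ± 26.2 CPM in GST, against 377 ± 139 CPM in GST-Ferry libraries (SD, n = 3 each), a fitted log2 fold change of 1.48 ± 0.27 (SE), or 2.8-fold. That placed VPS8 at rank 14 of the 15546 genes, counted from the highest signed log2 fold change down, where the bait mRNAs PPP1R21, C12orf4 and TBCK held ranks 1, 2 and 3. The other 2 FERRY genes were not called, with GATD1 at 0.12 ± 0.23 and CRYZL1 at -0.50 ± 0.22 (SE).

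TGFBRAP1, the other subunit that belongs to CORVET alone, showed a smaller difference than VPS8. The gene lies on chromosome 2 (105264391 to 105330034, minus strand), and its transcript has 12 exons and a long 3′ untranslated region of 2972 bases. Its level was 80.5, 83.7 and 57.3 CPM in GST 1, 2 and 3 and 83.4, 117 and 105 CPM in GST-Ferry 1, 2 and 3. GST-Ferry 1 lay within the range of GST, so the groups overlapped. The log2 fold change was 0.46 ± 0.22 (SE), about 1 log2 unit below that of VPS8, and 0.28 without GST 3.

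**Figure D1:**
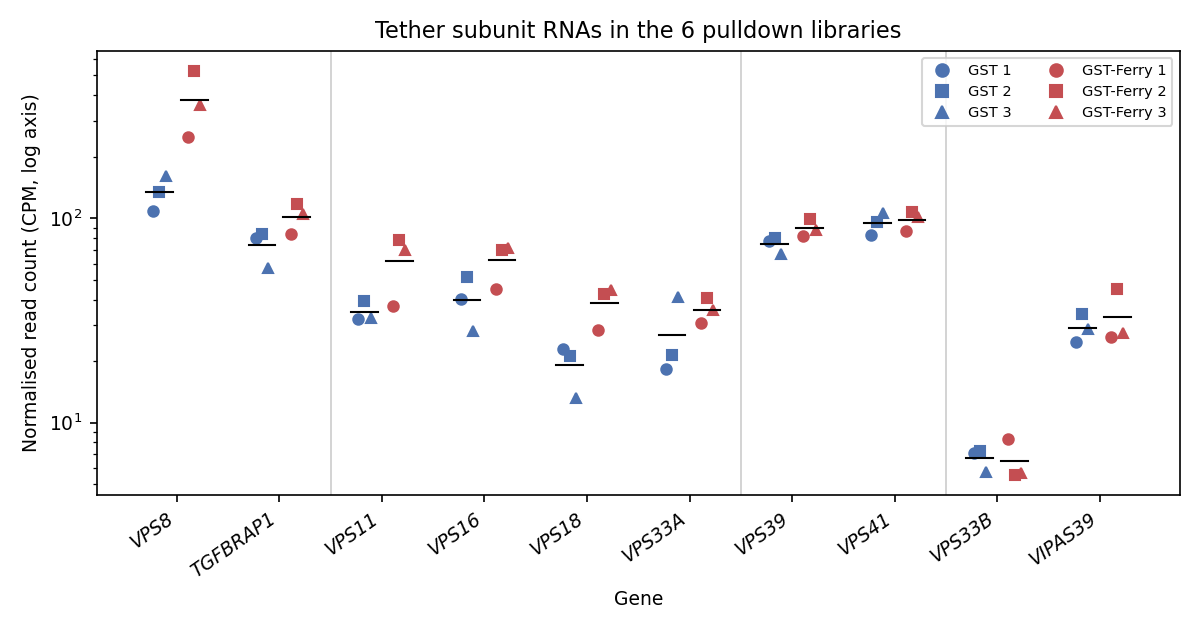
Normalised read counts (CPM, log axis) of the 10 members in each of the 6 libraries. Blue symbols are GST and red symbols are GST-Ferry, with the replicate number by shape, short black lines mark group means, and grey lines separate CORVET, shared core, HOPS and the VPS33B-VIPAS39 pair. VPS8 is the highest in every library and its groups lie apart, from 108 to 161 CPM with GST and from 248.9 to 525.5 CPM with GST-Ferry.

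With all 6 libraries the 4 core subunits lay between VPS8 and the HOPS subunits in log2 fold change. Each of the 4 lay above 0 on the log2 scale (median 0.72), and VPS18 was the 1 whose groups did not overlap. VPS18, a scaffold subunit with a RING domain at its end, lies on chromosome 15 (40894430 to 40903975, plus strand). VPS18 had 22.8, 21.1 and 13.3 CPM in GST 1, 2 and 3 and 28.2, 42.6 and 44.8 CPM in GST-Ferry 1, 2 and 3. Its lowest GST-Ferry value, in GST-Ferry 1, was 28.2 CPM against a highest GST value of 22.8 CPM in GST 1. The log2 fold change was 0.99 ± 0.27 (SE), at the 98.2 percentile of all tested genes.

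VPS11, which pairs with VPS18 in the scaffold, lies on chromosome 11 (119067692 to 119081978, plus strand). It had 32, 39.3 and 32.6 CPM in GST 1, 2 and 3 and 37, 78 and 69.6 CPM in GST-Ferry 1, 2 and 3. GST-Ferry 2 and 3 stood well above GST, while GST-Ferry 1 fell below GST 2, and the log2 fold change was 0.81 ± 0.26 (SE). VPS16, which holds VPS33A in the complex, lies on chromosome 20 (2840703 to 2866732, plus strand) and had 40.2, 51.7 and 28 CPM in GST against 45.1, 69.6 and 71.8 CPM in GST-Ferry. Again GST-Ferry 1 lay inside the GST range, and the log2 fold change was 0.62 ± 0.26 (SE). VPS33A, the SNARE-binding subunit, lies on chromosome 12 (122229564 to 122266521, minus strand) and ran the other way within GST, with 18.4 and 21.3 CPM in GST 1 and 2 but 41.3 CPM in GST 3. The GST-Ferry libraries held 30.7, 40.6 and 35.7 CPM of VPS33A, all below GST 3 and all above GST 1 and 2.

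VPS33A and VPS18 thus lay at opposite ends of their GST range in GST 3. The ratio of VPS18 to VPS33A counts was 1.24 and 0.991 in GST 1 and 2 but 0.321 in GST 3, against 0.919, 1.05 and 1.26 in GST-Ferry 1, 2 and 3. Without GST 3 the log2 fold change of VPS33A was 0.80 ± 0.19 (SE) in place of 0.40 ± 0.29, and that of VPS18 was 0.75 ± 0.21 in place of 0.99 ± 0.27. Without GST 3, VPS16 had 0.38 and VPS11 0.725. VPS33A had 0.17 without GST 1 and 0.24 without GST 2, below VPS39 at 0.27 and 0.30 in the same fits, and 0.26 without GST-Ferry 2.

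The HOPS subunits were close to even between the baits. VPS41, the HOPS subunit known to bind ARL8, lies on chromosome 7 (38722963 to 38932394, minus strand). The 6 VPS41 values were 83, 96.3 and 105.5 CPM in GST 1, 2 and 3 and 86.2, 107 and 101.3 CPM in GST-Ferry 1, 2 and 3. They overlapped almost fully, with a log2 fold change of 0.05 ± 0.19 (SE) that was -0.02 when libraries were scaled by their totals alone. VPS39, the other HOPS subunit and a homologue of TGFBRAP1, lies on chromosome 15 (42158701 to 42208316, minus strand). For VPS39 the GST libraries held 77.2, 80.2 and 66.6 CPM and the GST-Ferry libraries 82.1, 99.1 and 87.9 CPM. The groups lay apart by a narrow gap, between GST 2 and GST-Ferry 1, and the log2 fold change was 0.26 ± 0.19 (SE), with 0.16 without GST 3 and 0.15 without GST-Ferry 2.

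The VPS33B-VIPAS39 pair overlapped between the baits in both genes. VIPAS39 lies on chromosome 14 (77426675 to 77457952, minus strand) and had 24.7, 34.2 and 28.7 CPM in GST against 26.3, 45 and 27.4 CPM in GST-Ferry, a log2 fold change of 0.16 ± 0.25 (SE). GST-Ferry 2 alone exceeded the GST range, and without it the value was -0.16. VPS33B lies on chromosome 15 (90998416 to 91022603, minus strand) and had the lowest CPM of the members as counted. It had 7.1, 7.29 and 5.75 CPM in GST, against 8.34, 5.57 and 5.65 CPM in GST-Ferry. Its log2 fold change was 0.00 ± 0.29 (SE), and its sign changed with the scaling, to -0.02 with RLE size factors and -0.06 with library totals alone.

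VPS33B could not be counted cleanly. A second annotated gene on the same strand, AC068831.7, shares 2091 exon bases with it, which is 75.57% of the VPS33B transcript. AC068831.7 was given 204, 180 and 180 counts in GST 1, 2 and 3, against 73, 80 and 39 for VPS33B, and 176, 48 and 38 in GST-Ferry 1, 2 and 3, against 57, 14 and 13. Added together both genes had 27.6 ± 4.33 CPM in GST, against 27 ± 6.28 CPM in GST-Ferry libraries (SD, n = 3 each). VPS16 shares 558 exon bases with PTPRA and VPS33A shares 1609 with AC048338.1, which had 0 counts in all 6 libraries. PTPRA itself had a log2 fold change of -0.30 ± 0.20 (SE). No stretch of 75 bases or more in the principal transcripts of VPS8, TGFBRAP1, VPS11, VPS18, VPS39, VPS41 or VIPAS39 matched another annotated transcript at 95% identity. VIPAS39 overlaps AHSA1 on the opposite strand by 83 exon bases, and AHSA1 had a log2 fold change of 0.82 ± 0.23 (SE).

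**Figure D2:**
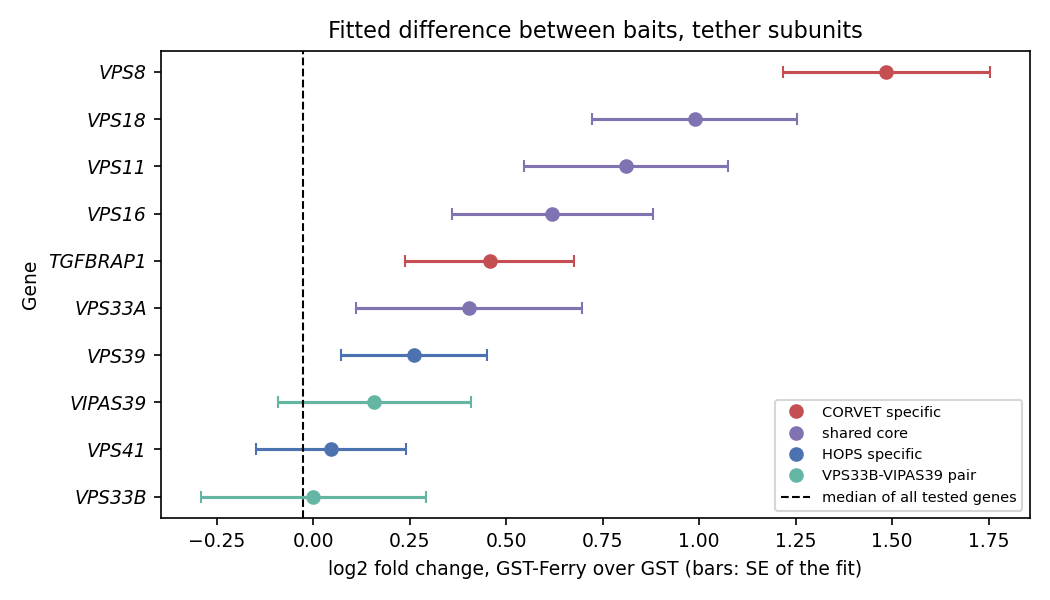
Fitted log2 fold change of each member, GST-Ferry over GST, with bars for the standard error of the fit and colours for the complex. The dashed line is the median of all tested genes, at -0.03. VPS8 lies at 1.48, the core subunits between 0.40 and 0.99, and the HOPS subunits and the VPS33B-VIPAS39 pair between 0.00 and 0.26, where VPS33B and VPS41 fall below 0 with library totals alone as the scaling.

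Across the set, 1 of the 10 RNAs (VPS8) passed the threshold as enriched and 0 as depleted in edgeR's quasi-likelihood test over all genes, where 0.592% of genes were enriched and 0.0322% depleted. By unadjusted p under 0.05, 4 members were higher and 0 lower, where 11.3% of all genes were higher and 8.05% lower. The 3 GST-Ferry libraries lay above the 3 GST libraries for VPS8, VPS18 and VPS39, against 14.9% of all tested genes, and below them for 0 members, against 12.2%. All 10 log2 fold changes were above 0 with the main scaling, compared with 47.8% of tested genes, but 9 with RLE size factors and 8 with library totals alone. The median was 0.43, beside -0.03 over all tested genes, and 0.40 over the 9 members other than VPS8. Since the members were chosen from this comparison, these shares carry no weight as a test.

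The call of VPS8 lay close to the threshold, at a Benjamini-Hochberg adjusted p of 0.042 in the quasi-likelihood fit of edgeR. The adjusted p was 0.0509 without GST 1, 0.0963 without GST 2, 0.425 without GST-Ferry 2 and 0.41 without GST-Ferry 3, and it was 0.0518 with RLE size factors, 0.0626 with library totals alone and 0.0573 with limma-voom. These fits called few genes of any kind as enriched. The counts were 62, 3, 0 and 3 without those 4 libraries, and 11, 7 and 14 with the other 3 settings, in the same order. The fold change of VPS8 stayed between 1.13 and 1.86 on the log2 scale over all 15 alternatives. Without GST 3, 3 members were enriched (VPS8, VPS18 and VPS33A), where 4.45% of all genes were. Without both GST 3 and GST-Ferry 1, 5 members were enriched, namely VPS8 and the 4 core subunits, where 11.5% of all genes were. The log2 fold changes without both libraries were 1.86 for VPS8, 1.05 for VPS11, 0.99 for VPS18, 0.94 for VPS33A and 0.62 for VPS16. TGFBRAP1 had 0.44 in that fit, VIPAS39 0.30, VPS39 0.25, VPS41 0.22 and VPS33B -0.36, with VPS8 first and the 4 core subunits above VPS39 and VPS41 in this fit.

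Ratios of counts within a library show the same members without any scaling between libraries. VPS8 reads per VPS41 read were 1.3, 1.4 and 1.52 in GST 1, 2 and 3 and 2.89, 4.91 and 3.52 in GST-Ferry 1, 2 and 3. Of the 9 ratios with VPS8 on top this was the tightest within GST, and the groups lay far apart. VPS8 reads per TGFBRAP1 read were 1.35, 1.61 and 2.8 with GST and 2.98, 4.49 and 3.39 with GST-Ferry, so GST 3 came close to GST-Ferry 1. Of the 9 ratios of VPS8 to another member, 7 were higher in all GST-Ferry libraries than in all GST libraries and 2 overlapped, those to VPS16 and to VPS18. All 9 hold the same VPS8 counts, and VPS8 was singled out on this comparison, so they are not separate results. The share of such ratios over genes in general was not computed. The VPS8 to VPS18 ratio was 4.74, 6.38 and 12.1 with GST and 8.81, 12.3 and 7.96 with GST-Ferry, with GST 3 among the highest.

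The balance of CORVET against HOPS RNAs differed between the baits with VPS8 in the sum and overlapped with TGFBRAP1 alone. Counts of VPS8 and TGFBRAP1 over those of VPS39 and VPS41 stood at 1.18, 1.24 and 1.27 in the GST libraries and at 1.97, 3.12 and 2.44 in the GST-Ferry libraries. With TGFBRAP1 alone in the numerator the ratios were 0.502, 0.474 and 0.333 with GST and 0.496, 0.568 and 0.556 with GST-Ferry, and the groups overlapped. The shared core over the HOPS subunits stood at 0.708, 0.756 and 0.669 with GST and at 0.838, 1.12 and 1.17 with GST-Ferry, without overlap. Transcript G+C was 54.0%, 57.5%, 60.6% and 46.8% for VPS11, VPS16, VPS18 and VPS33A, against 49.0% for VPS39 and 40.9% for VPS41. Whether base composition has a part in this ratio was not tested. As a share of all reads from the 10 genes, VPS8 took 21.9%, 23.6% and 29.8% in GST 1, 2 and 3 and 36.8%, 46.5% and 39.4% in GST-Ferry 1, 2 and 3. Summed by complex, the core had 120.6 ± 11.1 CPM in GST libraries and 197.9 ± 49.4 CPM with GST-Ferry, and the HOPS subunits 169.6 ± 8.43 and 187.8 ± 18.9 CPM (SD, n = 3 each), with overlap for HOPS but not for the core. The summed level of the 9 genes other than VPS8 was 399.9 ± 30.6 CPM in GST, against 527.0 ± 90.5 CPM in GST-Ferry libraries (SD, n = 3 each), and the groups overlapped. How often such ratios and sums lie apart over genes in general was not computed. The members were chosen with this difference known, so the values are a description.

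**Figure D3:**
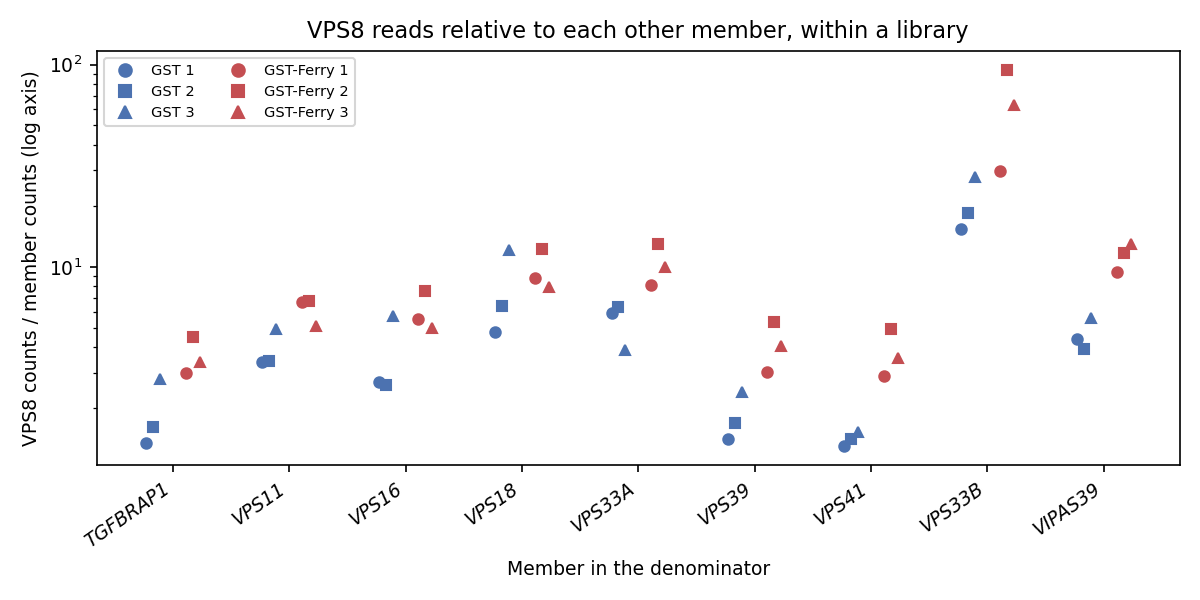
Counts of VPS8 divided by counts of each other member within the same library (log axis), blue for GST and red for GST-Ferry, with the replicate number by shape. The red symbols lie above the blue ones for 7 of the 9 members, and overlap them for VPS16 and VPS18, where the GST 3 symbol lies among the red ones.

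The log2 fold change of VPS8 lay near the top among RNAs of similar G+C content. VPS8 was chosen with this difference known, so its place there is a description and not a test. Over tested protein-coding genes, sorted into 5 equal bins by the G+C content of the principal transcript, the median log2 fold change climbed from -0.33 in the lowest bin to 0.38 in the highest. By transcript length it ran from 0.23 in the shortest bin to -0.13 in the longest. VPS8, with 43.1% G+C, belongs to the second bin by G+C, where the median was -0.14, 0.156% of genes were enriched and VPS8 was at the 99.9 percentile. VPS18, with 60.6% G+C, belongs to the top bin, where the median was 0.38, and lay 0.61 above it. VPS11 lay 0.56 above the median of its G+C bin, VPS41 and VPS16 0.37 each, and TGFBRAP1 0.21. VPS33B was the 1 member below its bin median, at a distance of -0.03.

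With offsets for transcript length and G+C content in the fit, VPS8 had a log2 fold change of 1.69 and VPS18 of 0.69. VPS11 then had 0.67, VPS33A 0.50, VPS16 0.40, TGFBRAP1 0.38, and VPS39 and VPS41 0.29 each. VIPAS39 had 0.17 and VPS33B -0.04. The step from VPS8 down to VPS18 was thus wider with the offsets than without them, and the other 9 members spanned a narrower range.

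**Figure D4:**
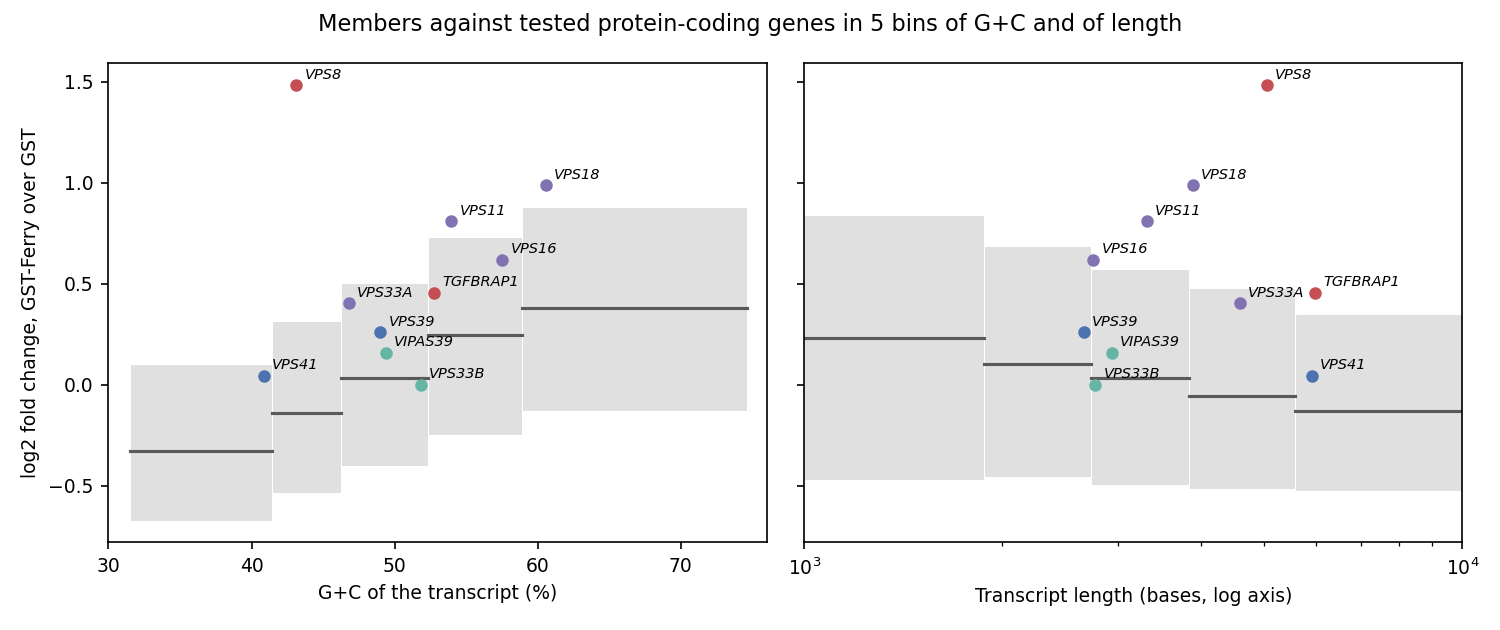
Log2 fold change of the members against the G+C content (left) and the length (right, log axis, clipped around the range of the members) of their principal transcript. Grey boxes span the 10th to 90th percentile of tested protein-coding genes in 5 equal bins and dark lines are bin medians. VPS8 lies far above its boxes, whereas VPS41 and VPS33B lie inside theirs.

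Levels were compared between genes per kilobase of annotated exon in the GST libraries, as a description. VPS8 had 13 ± 2.52 CPM per kb, TGFBRAP1 12.3 ± 2.4, VPS41 12.2 ± 1.45 and VPS16 11.9 ± 3.52 (SD, n = 3 each), and these 4 did not differ beyond their spread on this scale. VPS39 followed at 8.94 ± 0.855 and VIPAS39 at 7.9 ± 1.29 CPM per kb, which overlapped each other. VPS11 had 5.86 ± 0.686, VPS18 4.71 ± 1.26 and VPS33A 3.6 ± 1.66 CPM per kb, each within the spread of its neighbour, and VPS33B was lowest at 1.67 ± 0.21. Core subunits other than VPS16 thus lay below the subunits at the ends of either complex. VPS33B, VPS33A and VPS16 share 2091, 1609 and 558 exon bases with another gene on the same strand. Their values per kb, and their places in this order, are therefore uncertain. Per kilobase of principal transcript, VPS8 stood at 26.7 and VPS39 at 28.1 CPM per kb, where the VPS39 model holds 3 bases of untranslated sequence, and VPS41 was next at 16.1. VPS8 has 10366 annotated exon bases but a transcript of 5047. On the transcript scale VPS8 (26.7 ± 5.18) thus lay above VPS41 (16.1 ± 1.91), VPS16 (14.5 ± 4.3) and TGFBRAP1 (12.3 ± 2.41; SD, n = 3 each). The likeness of these 4 genes therefore holds for annotated exons alone.

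The genes whose profile over the 6 libraries was nearest to that of VPS8 all had shorter transcripts than VPS8. By root mean square difference of centred log2 CPM over the 6 libraries they were the peroxiredoxin PRDX2 (0.149), the histone gene H3C10 (0.151, uncertain because histone genes have near-identical copies), the biliverdin reductase BLVRB (0.181), and the cytokine MIF and the proteasome subunit PSMB3 (0.201 each). Their principal transcripts have 773 to 1237 bases, against 5047 for VPS8. Short transcripts held more of the enriched genes in general. In the shortest of the 5 length bins (207 to 1875 bases) 1.98% of protein-coding genes were enriched. The share was 0.155% in the bin of VPS8 (3844 to 5567 bases). PRDX2 had 108, 121 and 137 CPM in GST 1, 2 and 3 and 240.7, 389.8 and 350.1 CPM in GST-Ferry 1, 2 and 3, close to VPS8 library by library. The G+C content of these nearest genes ran from 49.1% to 66.7%, against 43.1% for VPS8. This likeness is a description over libraries that share depth and bait.

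Partners of the tethers were taken from a list chosen with earlier results of these data known, so their values are given as a description. The list held 31 genes for RAB GTPases, their exchange factor, ARL8 and its adaptors, SNAREs, the endosomal lipid kinase and RAB11. Of these, 1 was enriched and 0 were depleted, against the 0.592% and 0.0322% of all genes, and the median log2 fold change was 0.08, or -0.01 with library totals alone. The enriched gene was RAB5C, an isoform of the GTPase that recruits CORVET, with 14.6, 12.3 and 12.4 CPM in GST, against 26.2, 42.6 and 30.4 CPM in GST-Ferry. RAB5C rose by 1.32 ± 0.24 (SE) on the log2 scale (adjusted p = 0.0427 by edgeR's quasi-likelihood test), while its isoforms RAB5A and RAB5B had -0.06 ± 0.22 and 0.41 ± 0.19 and did not pass. The call of RAB5C was lost without GST 2, without GST-Ferry 2, without GST-Ferry 3, and with RLE size factors, library totals alone or limma-voom. In those fits 3, 0, 3, 11, 7 and 14 of all genes were enriched, in the same order. RAB7A, the late endosomal GTPase of HOPS, had 140.3, 124.9 and 135.1 CPM in GST, against 186.8, 284.4 and 236.6 CPM in GST-Ferry, without overlap, and did not pass (log2 fold change 0.82 ± 0.20, adjusted p = 0.0765 by edgeR's quasi-likelihood test). RAB7A was called enriched with DESeq2, with no filter, with the length and G+C offsets, without GST 3, and without GST 3 and GST-Ferry 1.

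SNARE genes, which carry out fusion after tethering, had 0 of 10 called in either direction and a median of -0.07 on the log2 scale. Over all genes 0.592% were enriched and 0.0322% depleted, so 0 calls in so short a list does not set it apart. At the low end was STX7, a syntaxin of late endosomes, at -0.60 ± 0.25 (SE), with 72.6, 77.3 and 134.9 CPM in GST, against 66, 61.3 and 60 CPM in GST-Ferry. STX7 was highest in GST 3, without which its value was -0.285, and the groups did not overlap. YKT6, the highest SNARE gene, had 0.60 ± 0.20 (SE) and did not pass the test either. Of the 5 genes of the MON1-CCZ1 exchange factor, which loads RAB7 onto endosomes, 0 were called, against the same shares of all genes, and the median was 0.04.

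Genes of other tethering complexes were set beside the members as a description, in a list chosen with earlier results of these data known. Among 25 genes of exocyst, GARP and EARP, COG and the NRZ complex, which tether vesicles at the plasma membrane, Golgi, endoplasmic reticulum and, for EARP, recycling endosomes, 0 were enriched and 0 depleted by edgeR's quasi-likelihood test, against 0.592% and 0.0322% of all genes. An unadjusted p under 0.05 in that test held for 1 higher and 0 lower, against 11.3% and 8.05% of all genes. DESeq2 called 1 (VPS51), where 3.37% of all genes were enriched. The median log2 fold change was -0.08, with 10 genes above 0 and 15 below. VPS51 of GARP was highest at 0.91 ± 0.24 (SE), with 76.4, 71 and 47.3 CPM in GST, against 95, 138 and 135.3 CPM in GST-Ferry, and VPS54 of the same complex was lowest at -0.38 ± 0.20. The difference between these genes and the CORVET and HOPS members was not tested, because the members had been chosen on it.

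**Figure D5:**
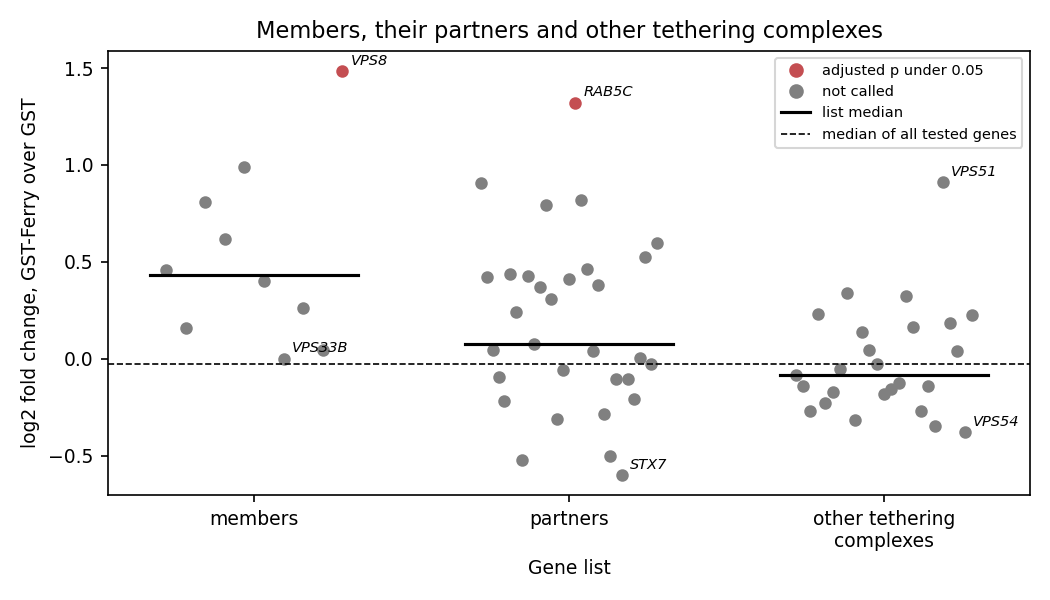
Log2 fold change, GST-Ferry over GST, of the 10 members, 31 partner genes and 25 genes of other tethering complexes, in alphabetical order from left to right within each list. Red points have an adjusted p under 0.05, solid lines are list medians (0.43, 0.08 and -0.08) and the dashed line is the median of all tested genes. Only VPS8 and RAB5C are red, and the highest and lowest gene of each list are named.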

How the data were processed

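RNA recovered by GST (3 libraries) and GST-Ferry (3 libraries) was compared. The authors deposited raw read counts per Ensembl gene; the submitters' processing notes name STAR 2.5.2b, bcl2fastq 2.19.1 and the build GRCh38.p13. Which program, annotation and strand setting made the counts is not given in the sources used here, and overlapping genes are therefore uncertain. Symbols, coordinates, transcripts and coding sequences came from GENCODE 29 (GRCh38), and a table of gene names.

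Low genes were removed by filterByExpr at a minimum count of 10 and a minimum total of 15, TMM factors (0.923 to 1.1) scaled the libraries, and genes were fitted with the two-sided quasi-likelihood test of edgeR 4.0.16 under R 4.3.3, with Benjamini-Hochberg adjustment over 15546 genes and a threshold of 0.05. CPM are per TMM-scaled library, SE comes from the fit, and log2 CPM used a pseudocount of 0.5. The floor of 3 counts equalled 0.273 to 1.3 CPM, for counting error only. Shared sequence was searched with blastn 2.17.0. The procedure was tested on simulated data with changes of known size. It recovered 3 of 76 genes changed 1.5-fold, 22 of 63 changed 2-fold and 49 of 58 changed 3-fold. Of its 76 calls, 2 were false. A gene that was not called may therefore still differ by 1.5-fold or 2-fold. Nothing says that replicates were separate cultures, and the p-values reflect sample-to-sample spread that may be technical.

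The members, partner and tether lists were chosen with earlier results of these data known. Named are all members, called genes and the highest and lowest gene of each list, genes overlapping a member, and the 5 genes of at least 10 CPM nearest to VPS8. RAB5A, RAB5B, RAB7A and YKT6 were chosen after their values were seen. Alternatives were RLE factors, library totals alone, no filter, DESeq2 1.42.0, limma-voom (limma 3.58.1), the replicate block, removal of the 5 bait genes, length and G+C offsets, each library left out, and GST 3 with GST-Ferry 1 left out.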

Additional observations from a re-analysis of the deposited data

How the results depend on the processing

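Counts and medians of the 3 lists and the log2 fold changes of the 10 members were recomputed under 15 alternatives, and ratios to the HOPS subunits under the 7 that leave out libraries. The fold changes of 8 named partner and tether genes and the ratios of VPS8 to each other member were added after seeing the data. Class sums, the ratio of CORVET to HOPS subunits, levels per kb, G+C bins and nearest genes were not recomputed. The number of enriched members, 1 in the main analysis, was 0 with RLE size factors, library totals alone and limma-voom, 2 (VPS8 and VPS18) with DESeq2 and with no filter on low counts, and 5 with GST 3 and GST-Ferry 1 both left out. It ranged from 0 to 3 when 1 library was left out. Enriched partner genes numbered 0 with RLE size factors, library totals alone and limma-voom, 3 with DESeq2, no filter or the length and G+C offsets, 11 without GST 3 and GST-Ferry 1, and 0 to 4 with 1 library left out, and that list's median was 0.248 without both libraries, 0.177 with the offsets, -0.009 with library totals alone and 0.094 to 0.184 with 1 left out. Of the other tethering complexes 1 gene was enriched with DESeq2, with no filter and without GST 3 and GST-Ferry 1, and 0 to 1 with 1 library left out; their median was 0.062 with the offsets and -0.167 to 0.026 with 1 library left out. Over all genes, 92 were enriched in the main analysis, 11 with RLE size factors, 7 with library totals alone, 14 with limma-voom, 524 with DESeq2 and 421 with no filter. Without GST-Ferry 2 the count was 0, with 910 genes higher at an unadjusted p under 0.05. As shares of all genes tested, 3.37% were enriched with DESeq2, 1.29% with no filter (of 32648 genes) and 1.77% with the offsets. The share was 11.5% without GST 3 and GST-Ferry 1, and 0% to 4.45% with 1 library left out. Counts in the 3 lists are to be read beside these shares.

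The median of the members ranged from 0.28 to 0.55 over all alternatives. VPS41 changed sign with library totals alone (-0.018), with no filter (-0.011) and with 1 library left out (-0.06 to 0.14: -0.06 without GST 1 and without GST-Ferry 2, -0.005 without GST-Ferry 3); it was 0.217 without GST 3 and GST-Ferry 1. VPS33B changed sign with RLE size factors and DESeq2 (-0.019 each), library totals alone (-0.061), no filter (-0.049), the offsets (-0.038), the replicate block (-0.026), without GST 3 (-0.099) and without both libraries (-0.357), with -0.258 to 0.059 when 1 library was left out. VIPAS39 changed sign without GST-Ferry 2 (range -0.161 to 0.317 with 1 library left out). RAB5A changed sign with the offsets (0.177), without both libraries (0.248), and with 1 library left out (-0.188 to 0.13). The cause of these changes was not tested. The log2 difference in VPS8 over HOPS subunits between baits was 1.30 and ranged from 1.09 to 1.61.

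Whether the replicate numbers pair the libraries could not be settled with 3 libraries of each bait. The correlation of deviations over 15546 genes was 0.244, 0.0796 and -0.148 for same-numbered libraries. It ran from -0.272 to 0.201 for libraries of different number. With the replicate number as a block, 1 member (VPS8, log2 fold change 1.44, adjusted p = 0.011 by edgeR) and 1 partner gene were enriched, and 167 genes in all. VPS33B had the fewest counts of the members, 13 to 80 a library, and 75.57% of its transcript is shared with AC068831.7.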
